A study of Mus musculus with 9 samples.

Results

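Transient receptor potential (TRP) channels of sensory neurons were followed as 9 genes, Trpv1, Trpv2, Trpa1, Trpm8, Trpm3, Trpm2, Trpm4, Trpm7 and Trpc5, of the 21809 genes with a transcript in the mRNA table of mouse trigeminal ganglion (TG). They were chosen by name as the TRP genes known for their part in sensory neurons. That rule uses no measured value, but the choice was made with earlier results of these data known. RNA-seq was done on 9 libraries, each a pool of TG tissue from 3 male 8-week-old C57BL/6 mice labelled WT. In every group the temporomandibular joint (TMJ) of 1 side was injected with 10 µl, and the groups were saline (replicates 1 to 3, day 3), complete Freund's adjuvant (CFA) at 5 mg/ml on day 3 (CFA3D, replicates 1 to 3) and CFA at 5 mg/ml on day 6 (CFA6D, replicates 4 to 6). The side from which the ganglia were taken is not given in the labels. CFA is an oil emulsion of killed mycobacteria that inflames the joint. No saline group of day 6 was used here, so time since the injection and treatment cannot be told apart in CFA6D. The question was whether the channels that carry heat, cold and irritant signals differ in their transcripts after the joint has been inflamed.

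TRP channels are cation channels of 4 subunits that open to temperature, chemicals, lipids or calcium. Most let sodium and calcium into the cell, while Trpm4 passes monovalent ions. In small-diameter neurons of the TG, Trpv1 answers to capsaicin, acid and noxious heat, Trpa1 to mustard oil and other electrophiles, and Trpm8 to menthol and cold. Inflammatory signals such as nerve growth factor and bradykinin act on these channels through kinases and phospholipase C, and this acts on the protein as well as on the transcript.

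All values are FPKM, fragments scaled to the length of the transcript and to the mapped fragments of the library. A gene sum adds up every transcript listed for a gene, and n = 3 pooled libraries per group throughout. The depth inferred from the FPKM steps was 30.0 to 42.2 M counted read pairs, which need not be all pairs sequenced, so that a single read pair on 1 kb of transcript counted for 0.0237 to 0.0333 FPKM. Over all gene sums the libraries correlated pairwise at 0.943 to 0.986, which is a description over 16096 genes. The 10 pan-neuronal markers (Rbfox3, Uchl1, Snap25 and others) were above 0 in every library, as were the 5 peptidergic and 5 non-peptidergic nociceptor markers. Other tissue was present unevenly. The 3 pituitary markers summed to 10447 FPKM in saline replicate 3 against 8.43 to 98.5 in the other saline libraries. On CFA3D they summed to 13.7 to 20.2 FPKM, and in CFA6D replicates 4, 5 and 6 to 1105, 396 and 42.4. The 5 granulocyte markers summed to 2539 FPKM in CFA6D replicate 6 against 119 and 132 in the other CFA6D libraries. The 3 skeletal muscle markers summed to 2.36 to 94.9 FPKM in saline, 0.636 to 5.84 on CFA3D and 0.655 to 33.5 on CFA6D. For the members, results that rest on saline replicate 3 or CFA6D replicate 6 are given with and without them. For other genes and marker lists no such values are given. In bulk RNA, fewer cells of a type and less RNA per cell cannot be told apart.

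In saline, the members lay over a wide range of levels. Trpm8, the menthol and cold channel, was the most abundant, at 24.8, 26.7 and 21.6 FPKM (24.4 ± 2.58, mean ± SD, n = 3). Trpv2, which opens to stretch and to strong heat in vitro, followed at 19.0, 13.6 and 12.9 FPKM. Trpm3, a channel for noxious heat and pregnenolone sulphate, stood at 11.2, 10.5 and 12.5 FPKM. Trpv1 was at 12.1, 10.8 and 9.68 FPKM, and its libraries overlapped those of Trpm3, so these neighbours in the order did not differ beyond their spread. The calcium-activated monovalent channel Trpm4 was at 10.9, 9.36 and 9.04 FPKM, and the magnesium channel and kinase Trpm7 at 10.3, 9.61 and 8.55 FPKM. Each of these overlapped its neighbour in the order. Trpa1 was lower, at 5.52, 6.64 and 6.14 FPKM, and Trpm2, which opens to ADP-ribose and oxidative stress, lay at 5.40, 4.34 and 5.13 FPKM. Trpc5, a channel tied to cold sensing in teeth, was at 0.324, 0.322 and 1.15 FPKM. Its lowest library of all 9 rested on about 30 read pairs, while Trpm8 had 3122 to 5307. Trpm8 exceeded Trpv2, and Trpv2 exceeded Trpm3, in 9 of 9 libraries. This order is of gene sums, which include noncoding transcripts. Coding transcripts made up on average 97.2% of the sum for Trpm8, 99.0% for Trpv1, 100% for Trpa1 and 96.5% for Trpc5. For Trpm7, Trpv2, Trpm3, Trpm4 and Trpm2 the share was 65.8, 52.2, 50.0, 34.0 and 31.5%. The order of coding transcripts alone differed. In saline those of Trpm3 averaged 5.18 FPKM, below the 6.10 of Trpa1.

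**Figure D1:**
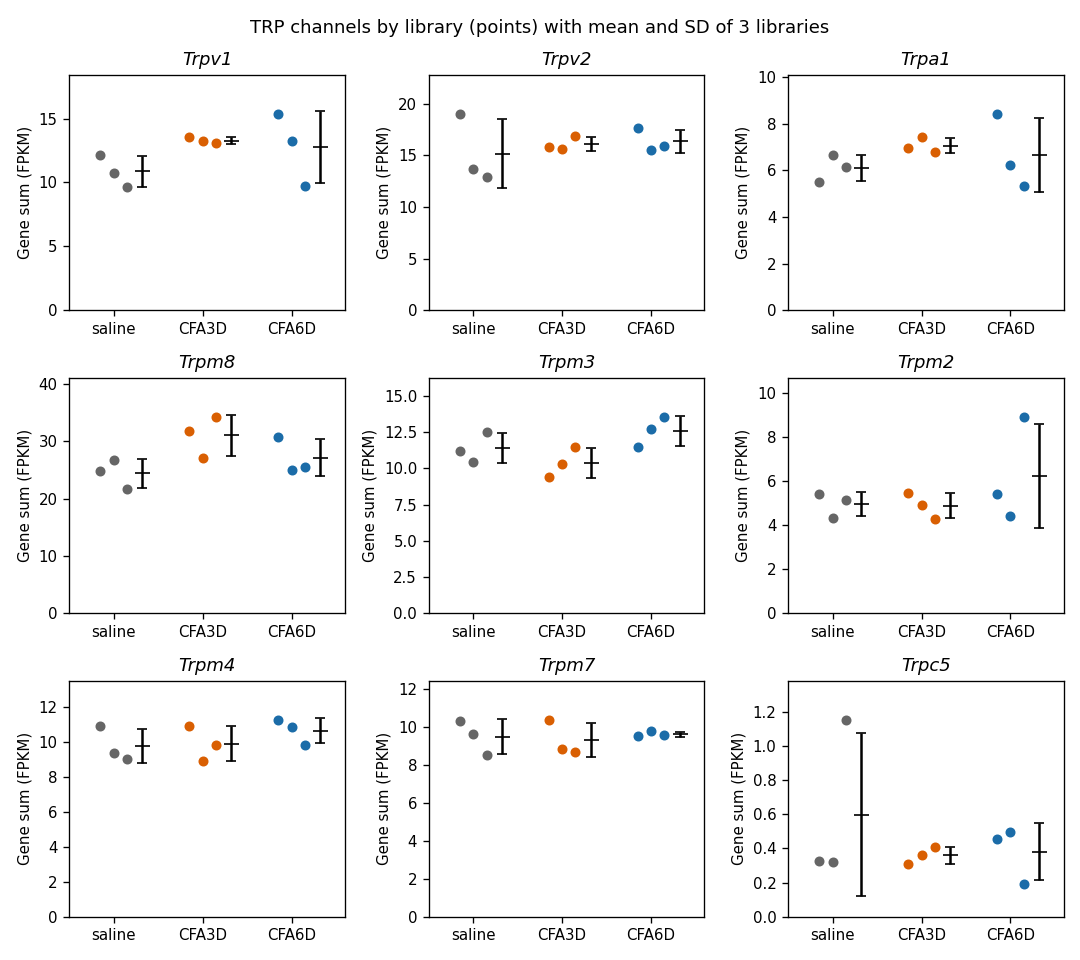
Gene sums of the 9 TRP channels in FPKM (vertical axis, from 0) for each library (points, in the order of replicate number) of saline, CFA3D and CFA6D, with the mean and SD of 3 libraries in black. All 3 CFA3D points lie above the saline points for Trpv1, Trpa1 and Trpm8, while Trpc5 is high in saline replicate 3 and Trpm2 in CFA6D replicate 6.

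The first comparison asked how the channels stood on day 3 after CFA. Trpm8, Trpv1 and Trpa1 were higher in all 3 CFA3D libraries than in any saline library, and the other 6 members overlapped. Trpm8 measured 31.7, 27.1 and 34.2 FPKM on CFA3D, a mean of 31.0 ± 3.58 against 24.4 ± 2.58 in saline. The fold was 1.27 (95% confidence interval 1.05 to 1.53), with a log2 difference of 0.34 ± 0.12 (SE). The unadjusted limma p was under 0.05, and after Benjamini-Hochberg adjustment over all gene sums it was 0.997. Without saline replicate 3, the library rich in pituitary markers, the log2 difference of Trpm8 was 0.26, and the unadjusted p was no longer under 0.05. The same held without CFA3D replicate 3 and without CFA3D replicate 1.

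Trpv1 measured 13.5, 13.2 and 13.1 FPKM on CFA3D, 13.3 ± 0.247 against 10.9 ± 1.23 in saline. The CFA3D libraries were close together, and the lowest stood above the highest saline library of 12.1. The fold was 1.22 (0.962 to 1.56, limma, adjusted p = 0.997). Without saline replicate 3 the log2 difference of Trpv1 was 0.21, beside 0.29 with it. Without CFA6D replicate 6, which enters only the spread shared by the groups, the unadjusted p for Trpv1 on CFA3D was under 0.05. Trpa1 measured 6.97, 7.43 and 6.81 FPKM, 7.07 ± 0.320 against 6.10 ± 0.564. Its lowest CFA3D library was just above the highest saline library of 6.64, and the fold was 1.16 (0.906 to 1.48, limma, adjusted p = 0.997).

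The heat channel Trpm3 was at 9.39, 10.3 and 11.4 FPKM on CFA3D, a fold of 0.911 (0.771 to 1.08). Trpv2 was at 15.8, 15.7 and 16.8 FPKM, within the saline range, with a fold of 1.08 (0.870 to 1.33). For Trpm2 (5.46, 4.90 and 4.29 FPKM), Trpm4 (10.9, 8.93 and 9.81 FPKM) and Trpm7 (10.4, 8.86 and 8.70 FPKM) the folds were 0.985, 1.01 and 0.980. The interval of Trpm7 was 0.837 to 1.15. Trpc5 was at 0.308, 0.359 and 0.409 FPKM, a fold of 0.752 (0.372 to 1.52). It was lower than saline only by way of saline replicate 3, and without that library the log2 difference turned from -0.41 to 0.11.

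A call needed an unadjusted limma p under 0.05 and a log2 difference of at least 1 in size. On CFA3D, 0 of 9 members were called, beside 0.342% of all gene sums. At an unadjusted p under 0.05 alone, 1 of 9 members (Trpm8) passed, beside 4.45% of all. Libraries did not overlap for 3 of 9 members, all higher, beside 9.13% of all, where 1129 of those 1469 genes were also higher on CFA3D. The median log2 difference over the members was 0.02, beside 0.05 over all gene sums. No gene sum of the table reached an adjusted p under 0.05 in any of the 4 comparisons by limma, while 717 of 16096 had an unadjusted p under 0.05 on CFA3D.

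**Figure D2:**
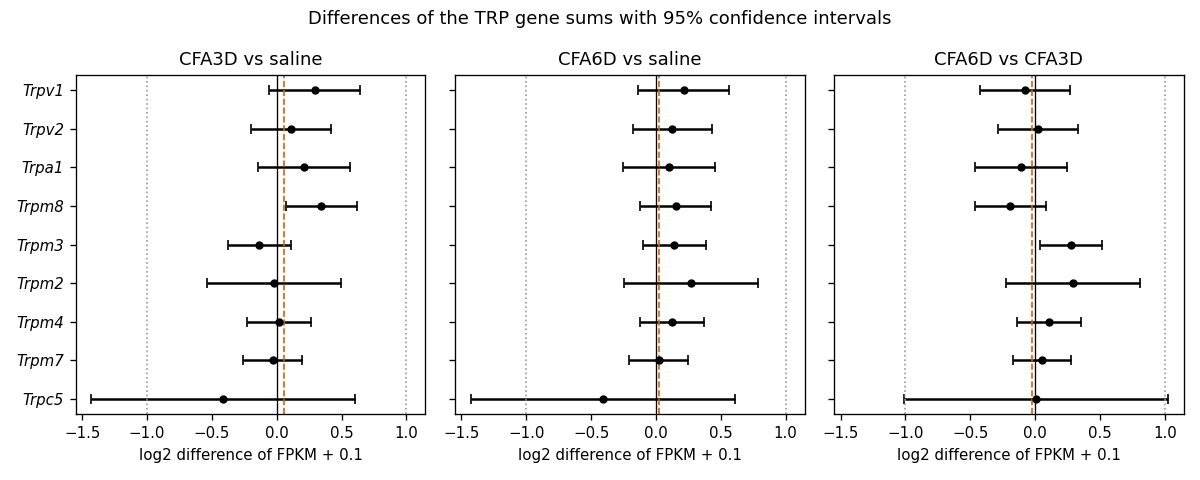
Log2 differences of the TRP gene sums (horizontal axis, on log2(FPKM + 0.1)) with 95% confidence intervals from limma, for CFA3D against saline, CFA6D against saline and CFA6D against CFA3D. The dashed line is the median of all gene sums and the dotted lines mark the fold minimum of a call. Among these 3 comparisons the intervals of Trpm8 on CFA3D and of Trpm3 between the days leave out 0.

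On day 6 the members again stayed within small differences, and 0 of 9 were called, beside 0.584% of all gene sums. At an unadjusted p under 0.05 there were 0 of 9, beside 11.1% (1781 genes) of all. Libraries overlapped with saline for every member, beside 16.2% of all gene sums that did not overlap. The median log2 difference over the members was 0.13, beside 0.03 over all gene sums. Of the 9 members 8 had a positive log2 difference, beside 8762 of 16096 gene sums. Trpv1 was at 15.4, 13.3 and 9.72 FPKM, so that replicates 4 and 5 were above and replicate 6 at the lowest saline level. Its fold was 1.16 (0.911 to 1.48). This value rested on replicate 6, the library rich in granulocyte markers, since without it the log2 difference of Trpv1 went from 0.21 to 0.40 and the unadjusted limma p was under 0.05. Trpa1 had the same order of libraries, at 8.42, 6.23 and 5.33 FPKM, and a fold of 1.07 (0.840 to 1.37). Without replicate 6 the log2 difference of Trpa1 went from 0.10 to 0.25, and without replicate 4 it turned to -0.077. Trpm8 was at 30.8, 25.0 and 25.6 FPKM, a fold of 1.11 (0.920 to 1.34).

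Trpm3 was at 11.5, 12.7 and 13.5 FPKM, with a fold of 1.10 (0.933 to 1.31). Trpv2 (17.6, 15.5 and 15.9 FPKM), Trpm4 (11.2, 10.8 and 9.85 FPKM) and Trpm7 (9.53, 9.78 and 9.58 FPKM) had folds of 1.09, 1.09 and 1.02. Trpm2 was at 5.42 and 4.39 FPKM in replicates 4 and 5 but at 8.88 in replicate 6. The fold of Trpm2 was 1.20 (0.842 to 1.72), and without replicate 6 its log2 difference went from 0.27 to -0.016. Replicate 6 is the library in which the granulocyte markers summed to 2539 FPKM. Trpm2 is known to be expressed in neutrophils and monocytes, and the part of these cells in its level was not tested. Trpc5 was at 0.458, 0.496 and 0.191 FPKM. Its fold of 0.755 (0.373 to 1.53) again rested on saline replicate 3, and without that library the log2 difference was 0.12. The pituitary markers were highest in that same library, and their part in the level of Trpc5 was not tested.

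Between the days, members without overlap were no larger a share than among all gene sums, and Trpm3 was the only one. All CFA6D libraries (11.5 or above) lay above the CFA3D libraries (11.4 or below), with a fold of 1.21 (1.02 to 1.43), an unadjusted limma p under 0.05 and an adjusted p of 0.641. Without CFA6D replicate 6 the log2 difference was 0.22, beside 0.28 with it, and the unadjusted p was no longer under 0.05. Of the 13.5 FPKM of Trpm3 in that library, 5.11 came from 4 transcripts listed at 0 in every other library. Summed FPKM is scaled to the length of each transcript, so it need not follow the number of reads. Trpm8 went the other way with overlap, at a fold of 0.876 (0.725 to 1.06). Of the 9 members 0 were called between the days, beside 0.77% of all gene sums. At an unadjusted p under 0.05 there was 1 of 9, beside 7.39%, and 1 of 9 without overlap, beside 16.7%. The comparisons with saline share the saline libraries, and those with CFA3D the CFA3D libraries.

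For both CFA days against saline, 0 of 9 members were called, beside 0.292% of all gene sums. Trpm8 was the 1 of 9 members at an unadjusted p under 0.05 (limma, adjusted p = 0.579), beside 8.19% of all, with a fold of 1.19 (1.01 to 1.40). Without saline replicate 3 the log2 difference of Trpm8 went from 0.25 to 0.16, and the unadjusted p was no longer under 0.05. The latter was also so without saline replicate 1, CFA3D replicate 1, CFA3D replicate 3 or CFA6D replicate 4. Libraries overlapped for 9 of 9 members, beside 3.88% of gene sums that did not. The median log2 difference of the members was 0.12, beside 0.04 over all.

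Marker levels of neurons differed between the groups too. The mean log2 level of the 10 pan-neuronal markers was 0.21 higher on CFA3D and 0.27 higher on CFA6D than in saline, and was lowest in saline replicate 3. The 5 peptidergic nociceptor markers (Calca, Tac1, Scn10a, Scn11a and another) summed to 540, 482 and 379 FPKM in saline. They summed to 557 to 620 on CFA3D and 450 to 560 on CFA6D. The 5 non-peptidergic markers (Mrgprd, Gfra2, P2rx3, Lpar3, Scn11a) summed to 98.6, 92.8 and 69.1 FPKM in saline. They summed to 96.2 to 106 on CFA3D and 98.4 to 114 on CFA6D. The low end of both saline ranges was thus saline replicate 3. The differences of the neuronal markers without that library were not computed. Set against the pan-neuronal markers of the same library, the log2 difference of Trpm8 on CFA3D was 0.13, that of Trpv1 0.08 and that of Trpa1 0.0021. On that scale the log2 difference of Trpm3 on CFA3D was -0.34, with an unadjusted limma p under 0.05, and the median of all gene sums was -0.16. This scale takes the same 0.21 from every gene on CFA3D and 0.27 on CFA6D, so any smaller positive difference falls below 0 by construction. On CFA6D that was so for Trpv1, Trpa1, Trpm8, Trpv2, Trpm3, Trpm4 and Trpm7, at -0.24 to -0.05, with the median of all at -0.24. The part of neuronal content in the gene sums was not tested.

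Transcripts of the members were then taken 1 by 1. The mRNA table lists 72 transcripts of the 9 genes, and 56 had a mean of at least 0.1 FPKM and were tested. The coefficient of variation over the 9 libraries was larger for 55 of these 56 transcripts than for the gene sum they belong to. A sum pools its forms and evens out shifts of reads between them, so this count says little about the isoforms. The share over all transcripts was not computed. On CFA3D 2 of 56 were called (Trpm8-203 higher and Trpm2-210 lower), beside 2.19% of all transcripts. On CFA6D 2 of 56 were called (Trpm8-203 and Trpm2-207, both higher), beside 2.57%. Between the days there were 2 (Trpm2-210 and Trpm3-204, both higher on CFA6D), beside 2.23%, and for both days against saline 2 (Trpm8-203 and Trpm2-207), beside 1.86%. Without the fold minimum the counts were 4, 4, 4 and 5 of 56 in the same order, beside 4.68%, 6.81%, 5.42% and 5.78% of all transcripts. No adjusted p of a member transcript was under 0.05. The share of all transcripts without overlap between groups was not computed, so a lack of overlap in a single transcript below has no background beside it. Among gene sums that share was 9.13% on CFA3D, 16.2% on CFA6D, 16.7% between the days and 3.88% for both days against saline.

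Trpm8 lies at chr1:88277661-88389293 on the plus strand (GRCm38), and its transcript Trpm8-203 is the noncoding one of the 4 listed. It is 567 bases long and starts 29.1 kb upstream of the main coding transcript Trpm8-201. It ends 10896 bp before the coding sequence begins. Of its 6 exons, 4 are shared with Trpm8-202, and only exon 1 (chr1:88277661-88277722) and exon 6 (chr1:88308010-88308073) are in no other Trpm8 transcript. Its start is 27 bp from that of Hjurp, a centromere gene on the opposite strand that was at 31.4 to 53.9 FPKM. The 30 bases over the junctions into and out of the private exons are shown because reads over them belong to this transcript alone among those of Trpm8. The libraries were strand-specific, but whether the counting used strand is not given in the sources used here. They are written 5′ to 3′, with the private exon in capitals.
Trpm8-203 exon 1 to 2: CCTAGAGGCTTCTGGgtgaagctactctgc
Trpm8-203 exon 5 to 6: gtgctgggatcacagGACAACAGGAGAATG

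Trpm8-203 was at 0.198, 0.225 and 0.255 FPKM in saline. On CFA3D it was at 1.52, 0.365 and 1.41 FPKM, and on CFA6D at 0.451, 1.35 and 1.25 FPKM. All 6 CFA libraries were above the 3 saline libraries, but 1 library of each CFA group, CFA3D replicate 2 and CFA6D replicate 4, stood well below the others. The folds on log2(FPKM + 0.1) were 3.22 (1.38 to 7.51) on CFA3D and 3.15 (1.35 to 7.36) on CFA6D. The adjusted p by limma was 0.989 and 0.632. These values stand on about 3.4, 3.8 and 5.8 read pairs in saline and 8.2 to 36.4 in the CFA libraries, so the saline levels are near the smallest the depth can show. The CFA3D call was lost without CFA3D replicate 1 (log2 difference 1.37, beside 1.69 with it). The CFA6D call was lost without CFA6D replicate 5 (1.41, beside 1.66 with it), and without saline replicate 3 and CFA6D replicate 6 together (1.52). Trpm8-203 made up 0.797 to 5.37% of the gene sum. The main coding transcript Trpm8-201 carried 80.9 to 92.1% of it, at 22.8, 24.6 and 18.3 FPKM in saline, 28.5, 21.9 and 29.9 on CFA3D, and 25.1, 21.1 and 22.9 on CFA6D. The fold of Trpm8-201 was 1.22 (0.955 to 1.56) on CFA3D and 1.06 (0.826 to 1.35) on CFA6D.

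**Figure D3:**
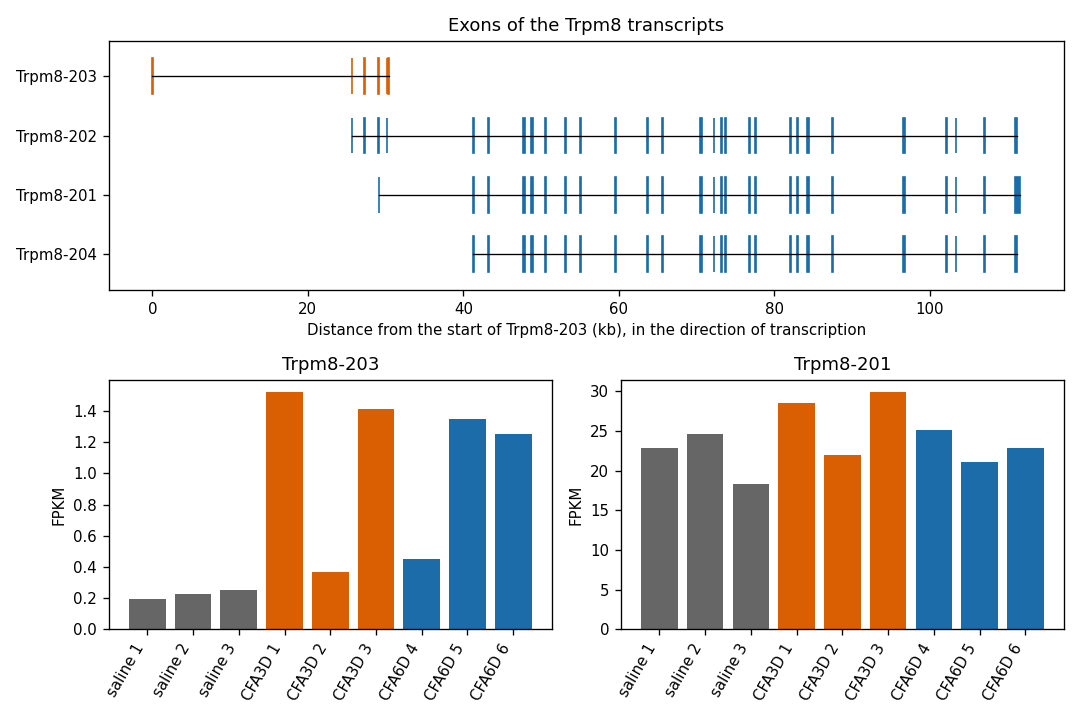
Exons of the 4 Trpm8 transcripts by distance in kb from the start of Trpm8-203 (top), and FPKM of Trpm8-203 and Trpm8-201 in each library (bars, from 0, grey for saline, orange for CFA3D, blue for CFA6D). The short upstream transcript is above saline in all 6 CFA libraries at 0.365 to 1.52 FPKM, on a scale far below that of Trpm8-201.

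Trpa1 (chr1:14872648-14918862, minus strand) has 2 coding transcripts that differ by exon 20 (chr1:14885750-14885839). These 90 bases encode 30 residues, and Trpa1-202 lacks them while keeping the reading frame. The last exon of Trpa1-202 is also 858 bases shorter in the annotation. The junctions of each form are shown to make the skip visible, with exon 20 in capitals.
Trpa1-201 exon 19 to 20: agaatagacactctgAATTCATTTCCAATA
Trpa1-201 exon 20 to 21: CAAATTTTCCAACAGaaaaggaattacttc
Trpa1-202 exon 19 to 20: agaatagacactctgaaaaggaattacttc

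The short form Trpa1-202 was at 1.14, 1.15 and 0.785 FPKM in saline, at 0.516, 0.652 and 0.526 on CFA3D, and at 1.15, 0.898 and 0.777 on CFA6D. All 3 CFA3D libraries were below both other groups. The fold against saline was 0.595 (0.412 to 0.860, limma, adjusted p = 0.989), which is under the fold minimum of a call. Trpa1-202 was thus neither called nor the Trpa1 transcript of highest mean, and it falls outside the naming rule stated below. Trpa1-201, the full-length form, was at 4.38, 5.49 and 5.35 FPKM in saline, 6.45, 6.77 and 6.28 on CFA3D, and 7.28, 5.33 and 4.55 on CFA6D. As a share of the gene sum, Trpa1-202 made up 20.7, 17.3 and 12.8% in saline. On CFA3D the share was 7.41, 8.78 and 7.73%, and on CFA6D it was 13.6, 14.4 and 14.6%. The CFA3D shares were lower than those of every other library, and the shares of CFA6D lay within the saline range. About 62.3 to 148 read pairs stood behind Trpa1-202 in a library. The share is an estimate by the authors' counting from reads that the forms mostly have in common, and the difference of its groups was not tested beyond the levels.

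Trpm7 (chr2:126791565-126876230, minus strand) has 2 near-identical forms that varied more than their sum. Trpm7-201 and Trpm7-202 differ by 113 bases of the first exon, 3 bases at the start of exon 29 and 6 bases at the end of the last exon. The exon 28 to 29 junctions are shown to make plain how little separates the forms inside the coding part, with the extra 3 bases in capitals.
Trpm7-202: ttcactcggtgcaagCAGaaagctgtagta
Trpm7-201: ttcactcggtgcaagaaagctgtagtagaa

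Trpm7-201 was at 2.49, 2.71 and 0.443 FPKM in saline, 2.87, 0.759 and 0.650 on CFA3D, and 2.49, 0.550 and 0.505 on CFA6D. A library at 2.49 FPKM or above and a library at 0.759 or below thus occurred in every group. Trpm7-202 was at 4.33, 3.68 and 5.04 FPKM in saline, 3.45, 5.53 and 5.10 on CFA3D, and 3.41, 5.71 and 5.58 on CFA6D. It was lower in the 4 libraries with high Trpm7-201 than in the other 5, and its folds were 1.07 (0.713 to 1.59) on CFA3D and 1.10 (0.739 to 1.65) on CFA6D. The sum of both forms ran only from 5.48 to 6.82 FPKM, a coefficient of variation of 6.39% over the 9 libraries. High and low splits between these forms were found within each group.

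**Figure D4:**
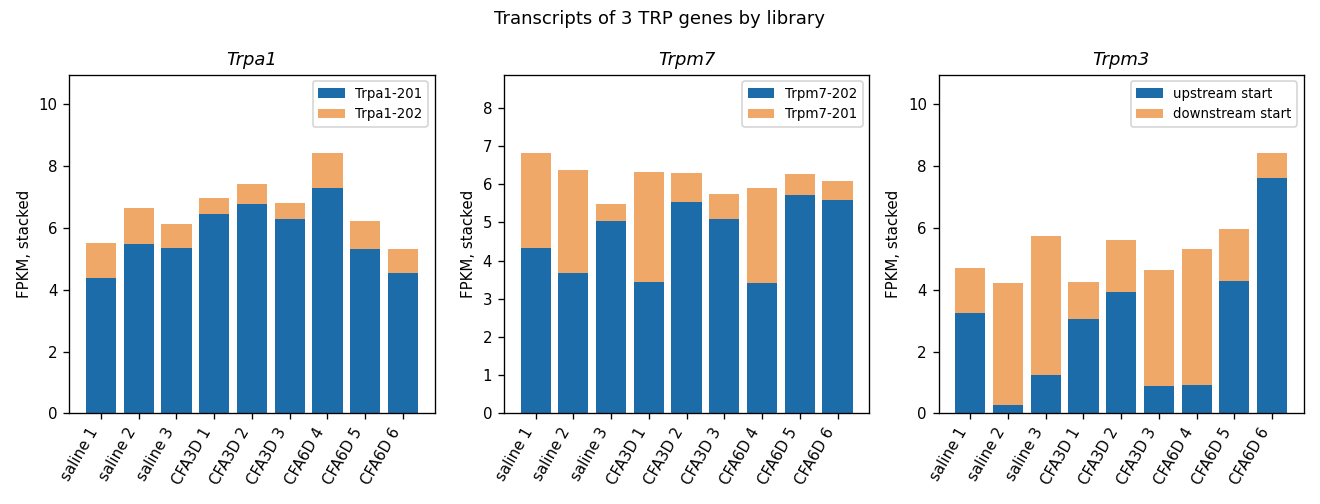
Stacked FPKM by library of the 2 forms of Trpa1, the 2 main coding forms of Trpm7, and the Trpm3 transcripts that start upstream or downstream. The Trpa1-202 part is thinnest on CFA3D, while the splits of Trpm7 and Trpm3 vary from library to library within each group.

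Trpm3 (chr19:22139046-22995410, plus strand) is the member with the most transcripts, 24 in the table. Of these, 5 start at the upstream end of the gene, and 7 share a start further downstream. The upstream group summed to 3.26, 0.284 and 1.25 FPKM in saline, 3.05, 3.94 and 0.888 on CFA3D, and 0.924, 4.28 and 7.61 on CFA6D. The downstream group was the lower of the pair where the upstream group was high, at 1.46, 3.94 and 4.48 FPKM in saline, 1.19, 1.65 and 3.76 on CFA3D, and 4.38, 1.67 and 0.804 on CFA6D. Libraries led by the upstream start and libraries led by the downstream start occurred in every group. Together they gave 4.22 to 8.42 FPKM. Trpm3-202, Trpm3-203, Trpm3-213 and Trpm3-222, all of the upstream group, were listed at 0 in 8 libraries and summed to 5.11 FPKM in CFA6D replicate 6, the library with the granulocyte markers. In the other 8 libraries the upstream group was thus Trpm3-218 alone, the coding transcript with the highest mean, which was at 2.51 FPKM in CFA6D replicate 6. Its folds were 1.93 (0.487 to 7.65) on CFA3D and 1.89 (0.476 to 7.48) on CFA6D. The other 12 transcripts, of which 6 are retained-intron forms, summed to 4.72 to 6.80 FPKM. Trpm3-215, a retained-intron form chosen after its values were seen, was at 1.37, 1.31 and 1.50 FPKM in saline, 0.965, 0.787 and 1.21 on CFA3D and 1.03, 0.910 and 0.915 on CFA6D. Every CFA library was below the saline libraries, with log2 differences of -0.48 and -0.51 (limma, adjusted p of 0.989 and 0.680). Trpm3 also hosts Mir204, a microRNA gene of 68 bases, which was listed at 0.274 to 1.10 FPKM, or about 0.560 to 2.65 read pairs, too few to compare.

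Trpm2 (chr10:77907722-77970563, minus strand) had most of its summed FPKM listed under transcripts that are not coding. Its retained-intron transcripts made up 60.4% of the gene sum on average, and its coding transcripts 25.7 to 38.4%. These are shares of FPKM, which is scaled to length, and not shares of reads. As for Trpa1, they are estimates by the authors' counting from forms that overlap. The coding transcripts summed to 1.66, 1.22 and 1.97 FPKM in saline, 1.40, 1.37 and 1.38 on CFA3D, and 1.76, 1.62 and 2.79 on CFA6D. The highest again was CFA6D replicate 6. Of these Trpm2-203 had the highest mean, at 1.25, 0.789 and 1.62 FPKM in saline, 1.33, 1.24 and 0.928 on CFA3D, and 1.34, 1.25 and 2.23 on CFA6D. Trpm2-207, a retained-intron form, was at 0.256, 0.797 and 0.380 FPKM in saline, 0.374, 1.11 and 1.00 on CFA3D, and 1.13, 1.30 and 2.21 on CFA6D. The fold on CFA6D was 2.97 (1.41 to 6.24, limma, adjusted p = 0.585). That call was lost without saline replicate 3 and CFA6D replicate 6 together (log2 difference 1.22, beside 1.57 with them). For both days together the call of Trpm2-207 was lost without saline replicate 1 (log2 difference 0.83), saline replicate 3 (1.05) or CFA6D replicate 6 (0.99), beside 1.13 with all libraries. Trpm2-210, a coding fragment of 436 bases, was at 0.239, 0.306 and 0.244 FPKM in saline and 0.328, 0.320 and 0.525 on CFA6D, but at 0, 0.0924 and 0.151 on CFA3D. That is 0 to 2.4 read pairs on CFA3D against 3.2 to 8.7 elsewhere, and its fitted fold depends on the added 0.1. Without CFA3D replicate 1 the CFA3D call was lost (log2 difference -0.72, beside -1.10 with it), and it was also lost without saline replicate 2 (-1.01).

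The remaining members were carried by few forms. Trpv1 (chr11:73234292-73261242, plus strand) was 98.6 to 99.4% coding, and Trpv1-202 alone held 91.6 to 95.6% of the gene sum, at 11.6, 9.93 and 8.87 FPKM in saline, 12.5, 12.3 and 12.4 on CFA3D, and 14.4, 12.3 and 8.95 on CFA6D. Trpv2 (chr11:62574486-62600515, plus strand) was 42.0 to 58.7% coding. Its main coding form Trpv2-202 was at 9.42, 7.96 and 5.11 FPKM in saline, 7.45, 8.43 and 9.68 on CFA3D and 9.55, 7.24 and 7.62 on CFA6D, and its noncoding form Trpv2-203, named after its values were seen, held 31.0 to 42.7% of the gene sum. Trpm4 (chr7:45302632-45333780, minus strand) was 29.3 to 40.1% coding. Its main coding form Trpm4-201 was at 2.94, 1.48 and 2.44 FPKM in saline, 3.41, 3.26 and 3.01 on CFA3D, and 4.22, 3.63 and 3.00 on CFA6D. All CFA libraries of Trpm4-201 were above saline, with a log2 difference of 0.68 on CFA6D (limma, adjusted p = 0.665). In saline replicate 2, where Trpm4-201 was lowest, the coding form Trpm4-209 was at 1.80 FPKM, against 0.0953 to 0.221 in the other 8 libraries. Trpc5 (chrX:144381671-144688180, minus strand) was 86.2 to 100% Trpc5-201, which was at 0.324, 0.322 and 1.04 FPKM in saline, 0.308, 0.359 and 0.378 on CFA3D, and 0.395, 0.496 and 0.191 on CFA6D.

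Among the 19 other genes of the TRP family, 16 passed the filter, and the calcium channel Trpv5 was listed at 0 in every library. The endolysosomal channel Mcoln1 was the most abundant, at 23.0 to 24.9 FPKM in saline, near the level of Trpm8. The polycystin Pkd2 (9.06 to 10.8 FPKM) and the canonical channel Trpc1 (6.67 to 9.48 FPKM) were at the level of Trpm4 and Trpm7. Lower in saline were Pkd2l2 (2.28 to 3.08 FPKM), Trpc6 (1.58 to 2.58 FPKM), Trpc4 (1.01 to 1.24 FPKM), and the warmth channels Trpv4 (1.08 to 1.38 FPKM) and Trpv3 (0.813 to 0.919 FPKM). All of these were lower than Trpm2, the member above Trpc5 in the order. Trpm6, Trpc7, Trpm5, Trpv6 and Pkd2l1 had saline means of 0.520, 0.598, 0.474, 0.535 and 0.245 FPKM. Trpc2 was listed at 0 except for 0.290 FPKM in saline replicate 2 and 1.01 in CFA6D replicate 6.

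Of these 16 genes, 1 was called on CFA3D (beside 0.342% of all gene sums), 1 on CFA6D (0.584%), 1 for both days (0.292%) and 0 between the days (0.77%), where 0 also had an unadjusted limma p under 0.05. Each time the called gene was Mcoln2. This endolysosomal channel, known from immune cells, was at 0.0391, 0.0432 and 0.0423 FPKM in saline, 0.133, 0.417 and 0.140 on CFA3D, and 0.0909, 0.325 and 0.381 on CFA6D. All 6 CFA libraries were above saline. The folds were 2.17 (1.09 to 4.31) and 2.40 (1.20 to 4.77), with adjusted p of 0.997 and 0.329 (limma), and for both days 2.28 (1.26 to 4.14, adjusted p = 0.429), at levels around the 0.1 added before the logarithm. The 8 macrophage markers, all above 0 in every library, summed to 93.5 to 115 FPKM in saline, 79.1 to 141 on CFA3D and 54.9 to 88.6 on CFA6D, and their part in the level of Mcoln2 was not tested.

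**Figure D5:**
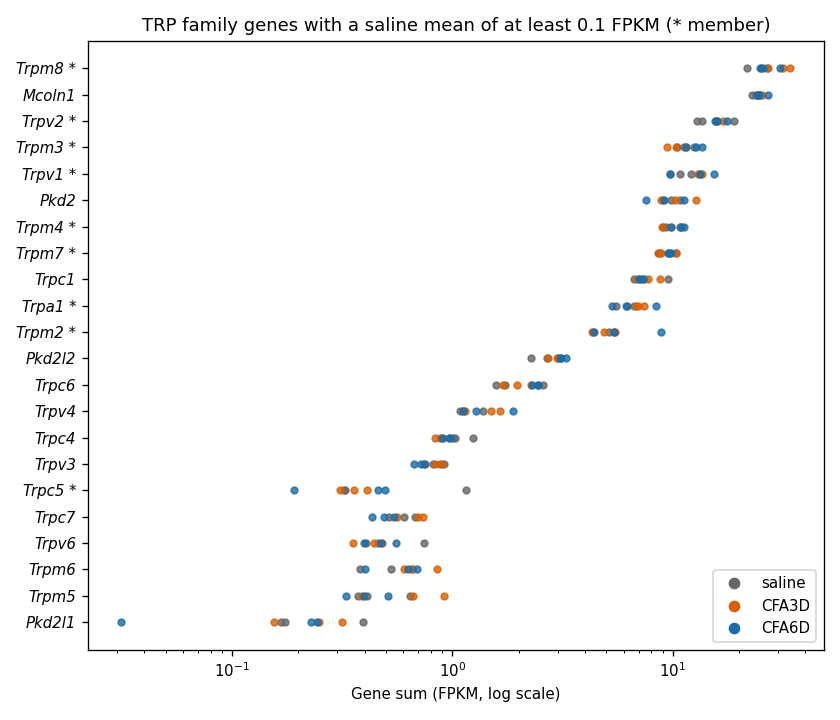
Gene sums of TRP family genes with a saline mean of at least 0.1 FPKM, shown for every library (points, log axis), ordered by saline mean, with the 9 members marked by a star. Trpm8 and Mcoln1 lead, and apart from Trpc5 no member has a saline library below 4.34 FPKM.

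Of 16 genes whose proteins act on TRP channels, all passed the filter, and 0 were called in any comparison. At an unadjusted limma p under 0.05, 4 of 16 were higher and 0 lower on CFA3D, beside 4.45% of all gene sums (588 of those 717 higher). On CFA6D 5 of 16 were higher and 0 lower, beside 11.1% (1323 of those 1781 higher). Their median log2 difference was 0.15 on both days, beside 0.05 and 0.03 over all gene sums and below the 0.21 and 0.27 of the pan-neuronal markers, whose part in it was not tested. Among the most abundant were the calmodulin genes Calm3 and Calm2 and the membrane protein gene Pirt, whose product binds Trpv1 and Trpm8. Calm3 had a fold of 1.13 on each day (0.953 to 1.33 and 0.955 to 1.34). For Calm2 the folds were 1.06 on CFA3D and 0.989 on CFA6D. Pirt was at 88.1, 85.0 and 72.2 FPKM in saline and 96.0, 95.6 and 104 on CFA3D, without overlap, and at 107, 96.5 and 84.2 on CFA6D. Its fold on CFA3D was 1.21 (1.02 to 1.43, limma, adjusted p = 0.997). The others at an unadjusted p under 0.05, named after their values were seen, were the kinase genes Prkaca and Prkce and the phospholipase C gene Plcb3 on both days, and Pip5k1c and Prkca on CFA6D. Saline replicate 3, rich in pituitary markers, was the lowest saline library for Pirt, Plcb3 (48.4, 46.6 and 40.9 FPKM), Prkce and Prkca. For Prkaca and Pip5k1c it was the highest. The partner counts without that library were not computed. The fold of Prkaca, the catalytic subunit of protein kinase A, was 1.20 (1.05 to 1.37) on CFA3D and 1.37 (1.20 to 1.57) on CFA6D, where its adjusted p was 0.106 (limma).

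Of 18 genes of receptors that act on TRP channels, 17 were tested and 0 were called in any comparison. At an unadjusted limma p under 0.05, 1 of 17 was higher and 0 were lower against saline on each day, beside 4.45% of all gene sums on CFA3D and 11.1% on CFA6D. Between the days 1 of 17 was lower at that cutoff and 0 were higher, beside 7.39% of all gene sums. Il6st, the shared subunit of interleukin 6 family receptors, was lower on CFA6D than on CFA3D with a fold of 0.789 (limma, adjusted p = 0.632). The purine receptor P2ry1 was at 12.2 to 20.9 FPKM and the tumour necrosis factor receptor Tnfrsf1a at 9.89 FPKM or above in saline. The median log2 difference of the receptors was 0.10 on CFA3D and 0.17 on CFA6D, beside 0.05 and 0.03 over all gene sums. Both were below the 0.21 and 0.27 of the pan-neuronal markers, whose part in them was not tested.

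The genes most like a member were taken as the 3 with the highest Pearson correlation over the 9 libraries, among 13167 gene sums whose mean was 1 FPKM or more. For Trpv1 these were Tac1 (0.92), the gene of substance P, Prmt2 (0.92) and Fbln5 (0.92). For Trpa1 they were Sept3 (0.93), Ubtd2 (0.87) and Dapk1 (0.86). Trpm8 was most like Tm7sf2 (0.95), Tmem196 (0.94) and Eya3 (0.94), and Trpm3 most like Celsr3 (0.92), Znrf3 (0.91) and Nmi (0.91). These are descriptions over 9 libraries that share tissue make-up and depth, picked as the highest of many.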

How the data were processed

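RNA was taken from trigeminal ganglia, depleted of ribosomal RNA and made into strand-specific libraries. Abundances of single transcripts are FPKM as the authors deposited them, in a table each for mRNA, lncRNA and other noncoding RNA. The methods name Trimmomatic, the build GRCm38 and CLC Genomics Workbench, while the submitters' processing notes name Bowtie 0.12.2 and mm8, and the tool that gave the FPKM is not given in the sources used here. Of 102122 mRNA table transcripts, 101539 matched GENCODE release 21 of the mouse, whose GRCm38 coordinates, names and exons are used. Junction sequences were cut from the matching reference.

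FPKM of the transcripts of a gene were summed in the mRNA table. Depth was recovered from the smallest FPKM steps, as 30.0 to 42.2 M read pairs, so read pairs per transcript are approximate and cover counting error only. Gene sums and transcripts whose mean reached 0.1 FPKM (16096 and 66562) were tested with limma 3.58.1 in R 4.3.3, with trended empirical Bayes on log2(FPKM + 0.1), all 9 libraries and 3 groups without covariates. Folds are on that scale, which understates changes of low genes, and p-values were adjusted by Benjamini-Hochberg over all gene sums or all transcripts. The test was checked on simulated data. The smallest p an exact permutation test of 3 against 3 libraries allows is 0.1. Each library pools 3 mice, so the spread is that between pools. Sums used pandas 2.3.3 and numpy 2.4.6 in Python 3.11.15, and figures matplotlib 3.10.9.

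All members were named, with every transcript called against saline and the transcript of highest mean of each member, the other TRP genes with a mean of at least 0.1 FPKM, and up to 4 partners and 4 receptors of highest mean. The members and lists were chosen with earlier results of these data known. Some genes of these lists are not reported here. Alternatives were other pseudocounts, filters, scalings, sums and sets of libraries.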

Additional observations from a re-analysis of the deposited data

Results flagged for a closer look

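Of 56 tested member transcripts, 3 had every CFA3D library on 1 side of the saline mean and every CFA6D library on the other. The share of all transcripts with this pattern was not computed, so the count has no background beside it. The differences between the days given here come from the same values that picked these transcripts. For Trpm2-210 the log2 difference of CFA6D from CFA3D was 1.51 (limma, adjusted p = 0.887), on 0 to 8.7 read pairs a library. For Trpm3-204, a coding transcript, it was 1.35 (limma, adjusted p = 0.918). Trpm3-204 was at 0.0174, 0.0167 and 0.0447 FPKM on CFA3D and 0.0824, 0.415 and 0.250 on CFA6D, and without CFA6D replicate 5 the log2 difference was 1.01 and the transcript was not called. For Trpm7-211 the log2 difference was 0.69 (limma, adjusted p = 0.918). Trpm7-211 was at 0.251, 0.268 and 0.465 FPKM in saline, 0.172, 0.234 and 0.326 on CFA3D, and 0.447, 0.444 and 0.453 on CFA6D. No cause was tested.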

How the results depend on the processing

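No member gene sum was called under any alternative that kept the fold minimum, and of 716 recomputed log2 differences 79 changed sign, none of them called. Of these, 17 came from the scale set against the pan-neuronal markers, which takes 1 constant per comparison from every gene. Without a minimum fold, 1 member was called on CFA3D, 1 between the days and 1 for both days, and the called member transcripts were 4, 4, 4 and 5 for CFA3D, CFA6D, between the days and both days. With a pseudocount of 1, or a mean of at least 1 FPKM, 0 transcripts were called in each of the 4 comparisons, so the transcript calls rest on low levels. Without saline replicate 3 and CFA6D replicate 6 together 0 were called on CFA6D and 1 for both days. Leaving out 1 library gave 1 to 3 transcripts between the days, 1 to 4 on CFA6D and 1 to 5 for both days. Counting read pairs is limited for Trpc5, Trpm8-203 and Trpm2-210. The causes of the changes below were not tested.

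All values that follow are log2 differences. Set against the pan-neuronal markers, Trpv2 (-0.10) and Trpm4 (-0.19) changed sign on CFA3D, Trpv1 (-0.053), Trpv2 (-0.14), Trpa1 (-0.16), Trpm8 (-0.11), Trpm3 (-0.12), Trpm4 (-0.14) and Trpm7 (-0.24) on CFA6D, Trpv2 (-0.036), Trpm7 (-0.0035) and Trpc5 (-0.050) between the days, and Trpv2 (-0.12), Trpa1 (-0.081), Trpm3 (-0.23), Trpm2 (-0.12) and Trpm4 (-0.17) for both days. With quantile normalization these were Trpm4 on CFA3D (-0.041), Trpm7 on CFA6D (-0.013), Trpc5 between the days (-0.10) and Trpm3 for both days (-0.060). With a pseudocount of 0.01 it was Trpc5 between the days (-0.017). With the transcript of highest mean they were Trpm3 (0.95) and Trpm7 (0.091) on CFA3D, Trpv2 (-0.068), Trpm3 (-0.034) and Trpc5 (-0.021) between the days, and Trpm7 for both days (0.12). Protein-coding transcripts alone, chosen after seeing the data, gave Trpm7 on CFA6D (-0.025) and, between the days, Trpv2 (-0.075), Trpm7 (-0.019) and Trpc5 (-0.021). Approximate reads per length, also chosen after seeing the data, gave Trpm3 (0.13) and Trpm2 (0.046) on CFA3D, Trpv2 (-0.023) and Trpc5 (-0.0022) between the days, and Trpm7 for both days (0.0039). Without saline replicate 3 and CFA6D replicate 6 together the changes were Trpv2 (-0.00054), Trpm2 (0.0052), Trpm4 (-0.034) and Trpc5 (0.11) on CFA3D, Trpm7 (-0.046) and Trpc5 (0.45) on CFA6D, Trpv1 (0.10) and Trpa1 (0.036) between the days, and Trpc5 for both days (0.28).

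Leaving out 1 library, the values on CFA3D ran from -0.00054 to 0.28 for Trpv2, -0.11 to 0.066 for Trpm2, -0.056 to 0.099 for Trpm4, -0.11 to 0.033 for Trpm7 and -0.67 to 0.11 for Trpc5. On CFA6D they ran from -0.077 to 0.25 for Trpa1, -0.016 to 0.48 for Trpm2, -0.050 to 0.086 for Trpm7 and -0.67 to 0.12 for Trpc5. Between the days they ran from -0.22 to 0.10 for Trpv1, -0.036 to 0.057 for Trpv2, -0.29 to 0.036 for Trpa1 and -0.18 to 0.34 for Trpc5. For both days they ran from -0.054 to 0.074 for Trpm3, -0.019 to 0.23 for Trpm2, -0.076 to 0.059 for Trpm7 and -0.67 to 0.11 for Trpc5.

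Replicate numbers 1 to 3 are shared by saline and CFA3D, but the deviations of same-numbered libraries correlated at 0.087, -0.080 and 0.030 and so gave no sign of pairing. With the replicate number as a block, 0 members and 2 member transcripts were called on CFA3D, as without it. The CFA6D libraries are numbered 4 to 6 and allow no such block.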
